A study of Mus musculus with 9 samples.

Results

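Glycosyltransferases of glycan branching and capping were described in RNA sequencing counts from mouse prostate tumours and their metastases. The members are the protein-coding genes whose symbol starts with Galnt, Mgat, B4galt, B3galt, B3gnt, Fut, St3gal, St6gal or St8sia followed by a letter or digit. The rule itself used no measured value, but the families were chosen with earlier results of these data known. The rule found 78 genes among the 47069 gene identifiers of the count files. They comprise 19 Galnt, 10 Mgat, 7 B4galt, 5 B3galt, 9 B3gnt, 8 Fut, 6 St3gal, 8 St6gal (St6galnac genes included) and 6 St8sia genes. A filter on low counts left 66 of them to be tested.

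The libraries fall into 3 proximal metastases from the epididymal fat, 3 distal metastases and 3 primary prostate tumours. The site of the distal group is given as diaphragm in one label and as lung in another, so only distal is used here. Every animal was a C57BL/6 mouse of about 9 to 10 months with exon 3 of 1 Ctnnb1 allele deleted in the prostate (Ctnnb1pc(ex3)delta/+), which stabilises beta-catenin, so all 3 groups share this allele. The labels describe the samples as matched in 3 mice without saying which libraries share a mouse, so all tests were unpaired and treat the 9 libraries as independent. There was no normal prostate or tumour without the allele among the samples, so the comparisons are between tumour sites only.

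These enzymes work mainly in the Golgi apparatus, where each transfers 1 sugar from a nucleotide donor to a growing chain. Galnt enzymes start mucin-type O-glycans by adding N-acetylgalactosamine to serine or threonine, and Mgat enzymes add the N-acetylglucosamine residues that set how many branches an N-glycan has. B4galt, B3galt and B3gnt enzymes lengthen the branches with galactose and N-acetylglucosamine, and Fut, St3gal, St6gal and St8sia enzymes cap them with fucose or sialic acid. In prostate and other glandular epithelia such glycans are carried by secreted and cell-surface glycoproteins, among them mucins, integrins and growth factor receptors.

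Total counts ranged from 28334730 to 40408723 per library. Levels are given as CPM, counts scaled to the library total with TMM factors (trimmed mean of M values). The primary tumours stood apart from each other. Primary 1 lay close to the metastases, with 70.8% of all tested genes inside the range of the 6 metastases, against 20.7% for primary 2 and 29.5% for primary 3. Primary 2 had a TMM factor of 0.795 and 0.131% mitochondrially encoded counts, against 0.994 to 1.05 and 0.868% to 1.18% in the other 8 libraries. Epithelial markers (14 of 14 in the files) summed to 2410 to 3505 CPM in the 6 metastases and to 3494, 18839 and 6861 CPM in primary 1, 2 and 3. Prostate secretory markers (7 of 7 in the files) summed to 1.63 to 9.19 CPM in the metastases and to 41.1, 651 and 772 CPM in primary 1, 2 and 3. Pbsn, Msmb, Sbp and Tgm4 of that list stayed under 1 CPM in every metastasis. Seminal vesicle markers summed to at most 17.7 CPM in the metastases and to 9.72, 27.2 and 10566 CPM in primary 1, 2 and 3. The hepatocyte marker list summed to 5237 to 7574 CPM in the metastases and to 4040, 121 and 652 CPM in primary 1, 2 and 3. Skeletal muscle markers summed to 669 and 899 CPM in distal 2 and 3, and to at most 6.75 CPM elsewhere. Lung epithelial markers summed to at most 2.96 CPM in the metastases and 20.7 CPM in the primary tumours. In bulk RNA, fewer cells of a type and less RNA per cell cannot be told apart.

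The comparison of both metastatic sites with the primary tumours asks which of these genes differ once the tumour has spread. 8 members fell in the metastases and none rose. They are B3gnt7 and B3gnt3, which extend galactose-ended chains; Galnt3, Galnt5 and Galnt6, which start O-glycans; Mgat4a, which adds an N-glycan branch; and Fut4 and St3gal4, which add terminal fucose and sialic acid. Calls are at an adjusted p (Benjamini-Hochberg) below 0.05 in edgeR's quasi-likelihood F-test over the 18204 genes that passed the filter. The 8 members are 12.1% of the 66 tested, where 3.68% of all tested genes were called lower and 0.033% higher. The median log2 fold change was -0.40 over the 66 members and -0.04 over all tested genes. Single-site calls of B3gnt7 and Mgat4a were known when these families were chosen, so nothing is read from these differences. Calls in the metastases rest on 6 libraries that came from 3 mice.

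B3gnt7 makes chains of repeated galactose and N-acetylglucosamine that can be sulphated. The gene (ENSMUSG00000079445) lies on chromosome 1, 86302832 to 86307305 on the forward strand of GRCm38. Its level was 0.522, 0.817 and 0.734 CPM in proximal 1, 2 and 3, 0.675, 0.524 and 1.03 CPM in distal 1, 2 and 3, and 72.4, 19.2 and 87.1 CPM in primary 1, 2 and 3. Every metastasis lay below every primary tumour, and the lowest primary tumour stood far above the highest metastasis. The log2 fold change was -6.37 (SE 0.48, adjusted p = 0.00373). Primary 1, with 72.4 CPM of B3gnt7, had an epithelial marker sum inside the range of the metastases and a prostate secretory marker sum above it, as given above, and their part was not tested. B3gnt7 was the one member of the 8 called in every fit that left out 1 library, with edgeR adjusted p from 0.000238 to 0.0324. It shares 520 exonic bases with the antisense gene Gm28626, whose reads cannot be told apart where counting ignores strand. The same limit holds for Galnt6 (441 bases with Galnt6os), St3gal4 (412 with 4930581F22Rik) and Galnt5 (237 with Ermn).

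Mgat4a adds a branch to the alpha-3 mannose arm of N-glycans, as does Mgat4b. The gene (ENSMUSG00000026110) lies on chromosome 1, 37439340 to 37541016 on the reverse strand. It stood at 47.4, 46.0 and 47.1 CPM in the proximal, 50.01, 51.0 and 50.8 CPM in the distal and 93.0, 86.6 and 90.1 CPM in the primary libraries. The groups did not overlap, and the libraries of each group lay close together. Over both sites the log2 fold change was -0.89 (SE 0.09, adjusted p = 0.00729). Mgat4a was called in 7 of the 9 fits that left out 1 library. It missed the threshold without distal 1 and without distal 2 (adjusted p up to 0.0550), with log2 fold changes from -0.91 to -0.84 over all 9 fits.

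B3gnt3 extends core O-glycans and makes carriers of selectin ligands. It (chromosome 8, 71690756 to 71701789, reverse strand) stood at 3.71, 6.10 and 4.33 CPM in the proximal, 4.98, 4.64 and 6.10 CPM in the distal and 24.7, 108 and 27.5 CPM in the primary libraries. The metastases lay together well under the primary tumours, and primary 2 was the highest library. Its log2 fold change was -3.42 (SE 0.46, adjusted p = 0.0158), and -2.39 without primary 2 (adjusted p = 0.00641). B3gnt3 was called in 4 of 9 fits with a library left out, among them each of the 3 without a primary tumour.

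The 3 called Galnt genes were at a few CPM or less in the metastases. Galnt3, the enzyme known for protecting the hormone FGF23 from cleavage (chromosome 2, 66082766 to 66124994, reverse strand), stood at 1.23, 2.02 and 1.98 CPM in proximal, 2.43, 2.43 and 3.03 CPM in distal and 4.62, 15.9 and 39.3 CPM in primary libraries. Its groups did not overlap, with primary 1 the nearest to the metastases. For Galnt3 the log2 fold change was -3.22 (SE 0.54, adjusted p = 0.0257), and -2.25 without primary 3 (adjusted p = 0.0920).

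Galnt5 (chromosome 2, 57997884 to 58045860, forward strand) had 3, 3 and 1 counts in proximal, 2, 0 and 0 counts in distal and 79, 36 and 179 counts in primary libraries. In CPM these are 0.0783, 0.0766 and 0.0245, then 0.05001, 0 and 0, then 2.12, 1.41 and 6.08. The gene was thus near the detection limit in every metastasis and present in all 3 primary tumours. It passed the filter through the primary tumours alone, so it could only come out lower in the metastases. The scaled counts of the distal libraries (2 in all) and the primary libraries (294 in all) gave a ratio of primary over distal of 178, with a 95% Poisson interval of 48.9 to 1479 that covers counting error only. The fitted log2 fold change over both sites was -6.46 (SE 0.75, adjusted p = 0.0112) and depends on the prior count used for 0. It was -5.60 without primary 3 (adjusted p = 0.0361). It was -7.74 without distal 1, a fit in which it was not called.

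Galnt6 (chromosome 15, 100691813 to 100729376, reverse strand) stood at 1.54, 3.34 and 1.298 CPM in proximal, 1.85, 2.81 and 8.64 CPM in distal and 14.1, 8.94 and 46.1 CPM in primary libraries. Distal 3 came close to primary 2, and the groups did not overlap. The log2 fold change was -2.93 (SE 0.65, adjusted p = 0.0499), and -1.93 without primary 3 (adjusted p = 0.209). The call was also lost with library totals alone, with a filter of at least 1 CPM in 3 libraries and with limma-voom. In the fits with a library left out, Galnt3 and Galnt6 were called only without primary 1, and Galnt5 in 4 of 9.

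Fut4 makes the Lewis X antigen on galactose-ended chains. It (chromosome 9, 14748320 to 14752393, reverse strand) stood at 0.731, 1.53 and 0.734 CPM in proximal, 0.875, 1.10 and 0.934 CPM in distal and 18.2, 2.30 and 6.28 CPM in primary libraries. Primary 1 was highest and primary 2 was the nearest to the metastases. The log2 fold change was -3.18 (SE 0.57, adjusted p = 0.0297), and -2.11 without primary 1 (adjusted p = 0.0107). Fut4 was called in 2 of 9 fits with a library left out, those without primary 1 and without primary 2.

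St3gal4 adds sialic acid to terminal galactose on N- and O-glycans. It (chromosome 9, 35046576 to 35119268, reverse strand) stood at 4.10, 6.69 and 3.21 CPM in proximal, 4.08, 4.98 and 5.33 CPM in distal and 18.7, 100.4 and 11.1 CPM in primary libraries. All metastases lay below all primary tumours, and primary 2 stood far above the other primary tumours. Over both sites the log2 fold change was -3.20 (SE 0.62, adjusted p = 0.0358), and -1.65 without primary 2 (adjusted p = 0.0571). It was called only without primary 1 when single libraries were left out. Prostate secretory and epithelial markers also differed between the groups, as given above. Seminal vesicle markers were high in primary 3 alone (10566 CPM), where B3gnt7, Galnt3, Galnt5 and Galnt6 were also highest. The part of these markers in the 8 results was not tested.

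**Figure D1:**
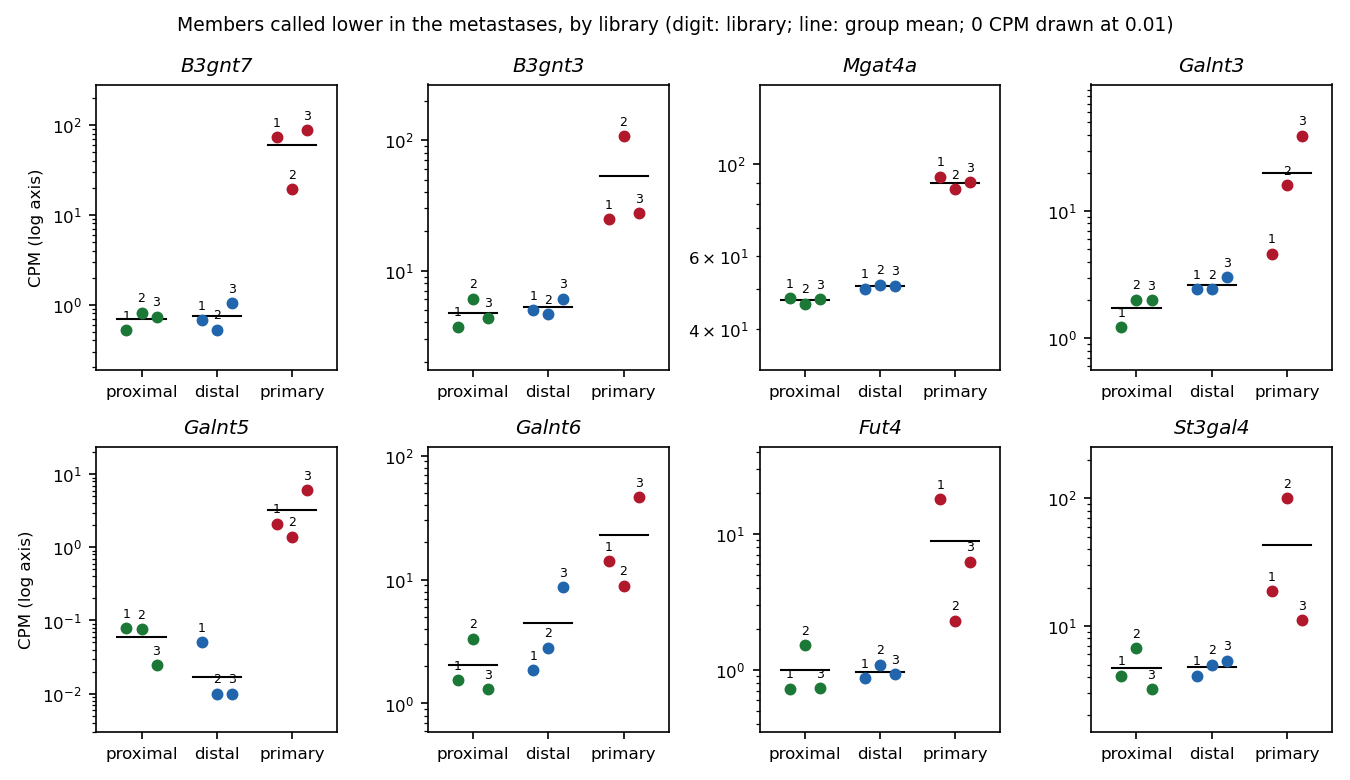
Level of the 8 called members in each library, in CPM on a log axis. Points are libraries numbered within their group, lines are group means and 0 CPM is drawn at 0.01; every metastasis lies below every primary tumour for all 8 genes, with B3gnt7 at 0.522 to 1.03 CPM in the metastases and 19.2 to 87.1 CPM in the primary tumours.

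The 250 bases before the RefSeq start were searched for 6 motifs as a description. All 8 called members fell, but so did most called genes, with 670 called lower and 6 higher over both sites. Windows were found for 58 of the 78 members and for all 8 called ones, in RefSeq's promoters on GRCm38.p6. Mgat4a and Galnt6 have a second RefSeq start and so a second window each, and counts below use the start that RefSeq's table lists first. Those shown are the first-listed windows of called members that hold no base of an annotated GENCODE exon. They are written 5′ to 3′ on the gene's own strand, and capitals mark matches to the E-box CACCTG and to the Sp/KLF motif GGGCGG on either strand.
Mgat4a, chr1:37541017-37541266, reverse strand: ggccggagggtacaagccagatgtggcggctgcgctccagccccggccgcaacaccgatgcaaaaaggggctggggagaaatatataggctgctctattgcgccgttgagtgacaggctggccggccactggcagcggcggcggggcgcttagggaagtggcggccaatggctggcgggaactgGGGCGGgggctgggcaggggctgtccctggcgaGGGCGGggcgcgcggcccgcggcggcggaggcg
B3gnt3, chr8:71701801-71702050, reverse strand: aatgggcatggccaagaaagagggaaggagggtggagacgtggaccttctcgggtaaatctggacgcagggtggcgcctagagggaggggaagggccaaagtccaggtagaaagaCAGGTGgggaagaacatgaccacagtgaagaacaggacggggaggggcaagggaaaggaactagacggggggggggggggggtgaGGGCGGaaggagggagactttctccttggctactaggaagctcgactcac
Galnt6, chr15:100729377-100729626, reverse strand: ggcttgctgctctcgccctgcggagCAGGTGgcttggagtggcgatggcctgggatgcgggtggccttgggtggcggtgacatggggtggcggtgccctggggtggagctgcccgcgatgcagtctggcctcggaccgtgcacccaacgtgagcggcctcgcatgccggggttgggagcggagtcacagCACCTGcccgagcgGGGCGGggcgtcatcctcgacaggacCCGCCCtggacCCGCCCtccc
The E-box was in the windows of B3gnt3, Fut4, Galnt3, Galnt5 and Galnt6, which is 5 of the 8 called members, against 15.5% of the 58 members and 17.1% of all 27025 promoters. GGGCGG was in 6 of the 8, in 62.1% of the members and in 32.9% of all promoters. Annotated exons cover all 250 bases of the windows of B3gnt7, Fut4, Galnt5 and St3gal4, and 201 bases of that of Galnt3. These windows are in the counts, so no enrichment is read from them. The TCF/LEF motif CTTTGNT, which beta-catenin's partner factors bind, was in none of these 8 windows and in 16.1% of all promoters, but the second window of Galnt6 (chr15:100720478-100720727) holds 1 match. The AP-1 motif TGANTCA, the ETS motif CCGGAAG and the Grainyhead motif AACCNGGTT were in none of these 8 windows, and in 6.87%, 7.05% and 0.244% of all promoters. The second window of Mgat4a (chr1:37536405-37536654) holds 1 AP-1 match. The windows of members were richer in CG pairs than those of all genes, with a median of 16 against 6. A match is a description of these letters only.

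Among the Galnt genes, 16 of 19 were tested, 3 fell and none rose, and 12 of the 16 log2 fold changes were negative (median -0.61). Over all 18204 tested genes, 3.68% were called lower and 0.033% higher, and 9578 log2 fold changes were negative. The same shares apply beside the counts of each family below, and a lack of higher calls is not a trait of a family. Galnt18, the Galnt gene with the highest level per length, stood at 134, 83.6 and 187 CPM in proximal, 147, 91.9 and 96.7 CPM in distal and 110, 371 and 91.6 CPM in primary libraries. Only primary 2 stood apart (log2 fold change -0.63, SE 0.46, adjusted p = 0.374), and without it the fold change was 0.29. Galnt17 was at 0.209, 0.357 and 0.171 CPM in proximal, 0.175, 0.5002 and 0.9002 CPM in distal and 1.26, 1.02 and 2.85 CPM in primary libraries (log2 fold change -2.25, SE 0.54, adjusted p = 0.0605). Its 6 metastases lay below the 3 primary tumours without passing the test. Galnt10, which prefers peptides that already carry a sugar, had the opposite arrangement. It was at 134, 134 and 162 CPM in proximal, 136, 143 and 135 CPM in distal and 128, 33.5 and 63.3 CPM in primary libraries (log2 fold change 0.91, SE 0.37, adjusted p = 0.182), and was chosen here after its values were seen. Galnt1, a widely expressed starter of O-glycans also chosen after its values were seen, was at 148.5 to 156 CPM in the metastases and 159 to 205 CPM in the primary tumours (log2 fold change -0.26, SE 0.11, adjusted p = 0.200). Its groups did not overlap, and it was called lower with sample quality weights and without primary 1.

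Among the Mgat genes, 8 of 10 were tested, Mgat4a fell and none rose (median log2 fold change 0.18, 5 of 8 positive). Mgat4b, the close relative of Mgat4a and the Mgat gene with the highest level per length, was at 99.8, 94.2 and 123 CPM in proximal, 124, 99.9 and 117 CPM in distal and 110, 185 and 101 CPM in primary libraries. Unlike Mgat4a its groups overlapped (log2 fold change -0.27, SE 0.21, adjusted p = 0.394). Mgat3, which adds the bisecting residue that blocks further branching, and Mgat4c were chosen after their values were seen. Mgat3 stood at 161 to 233 CPM in the 6 metastases and at 153, 13.3 and 62.7 CPM in primary 1, 2 and 3 (log2 fold change 1.29, SE 0.62, adjusted p = 0.228). Mgat4c stood at 38.4 to 101 CPM in the metastases and at 55.2, 0.859 and 6.32 CPM in primary 1, 2 and 3 (log2 fold change 1.82, SE 1.04, adjusted p = 0.281). In both genes primary 1 lay with or next to the metastases while primary 2 and 3 were low. Mgat1, which starts all complex N-glycans, and Mgat5, which adds the branch favoured by galectins, had log2 fold changes of 0.19 (SE 0.20) and 0.18 (SE 0.22), with adjusted p of 0.539 and 0.579.

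**Figure D2:**
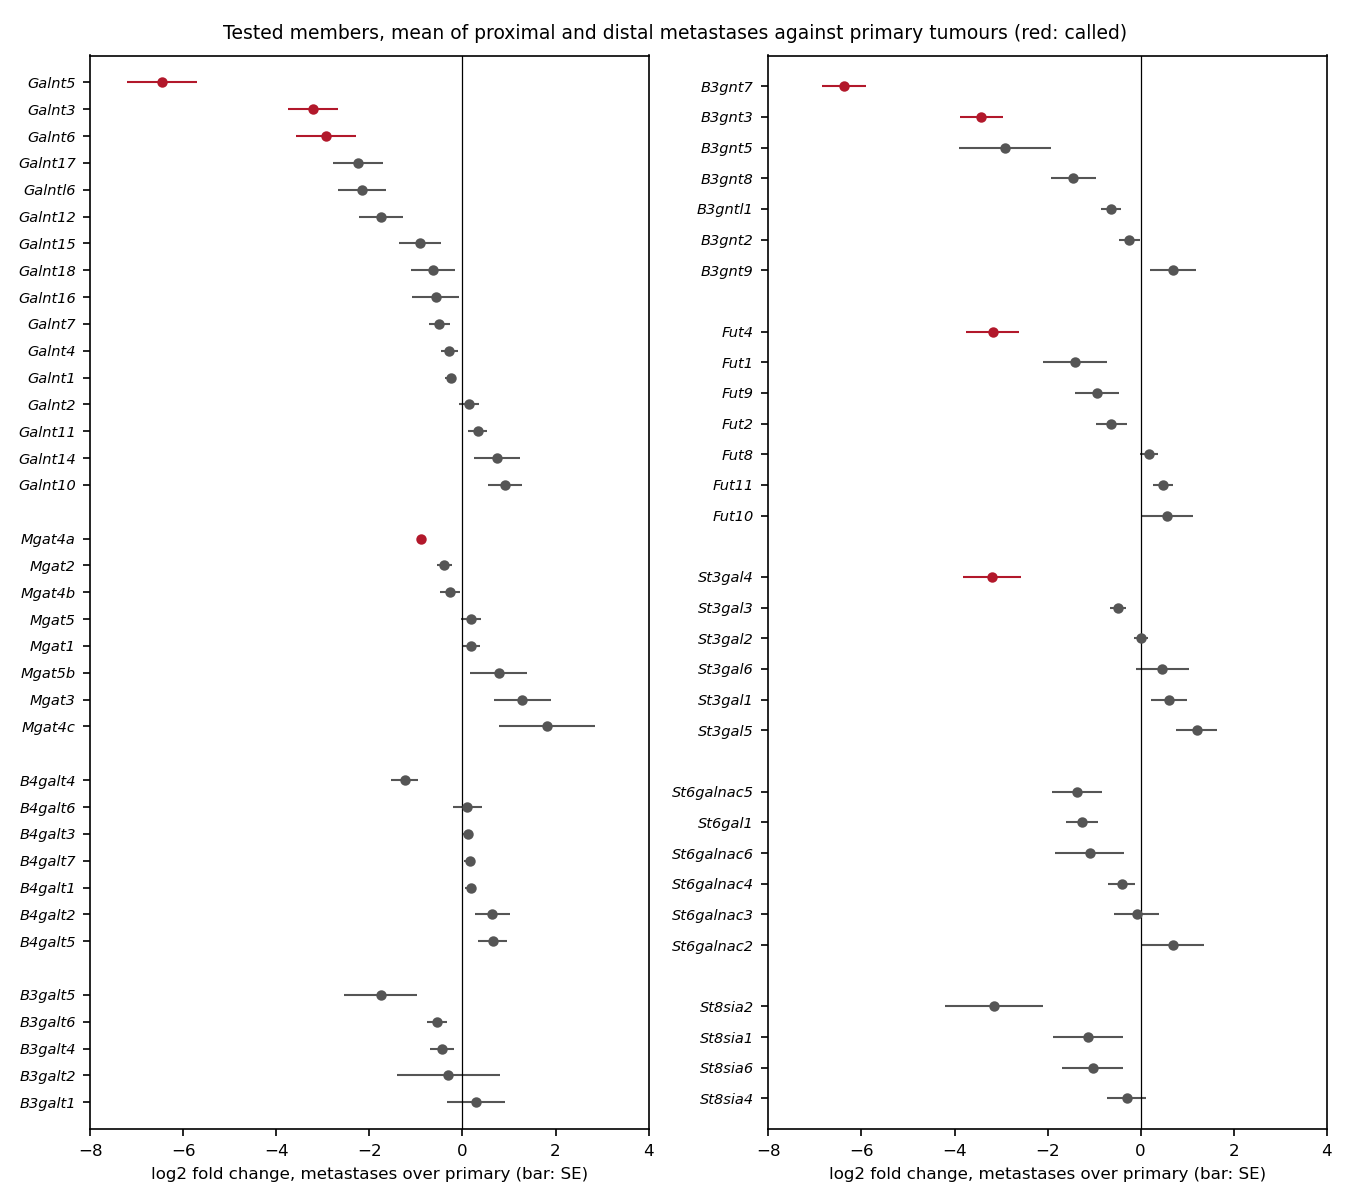
Log2 fold change, mean of both metastatic sites over primary tumours, of the 66 tested members by family, with its standard error as bars. Red marks the 8 called members, all to the left of 0, from -6.46 for Galnt5 to -0.89 for Mgat4a.

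The galactosyltransferases that lengthen the branches gave no call in either direction (7 of 7 B4galt and 5 of 5 B3galt genes tested). B4galt1, the main enzyme that adds galactose to N-glycan branches, had the highest level per length of its family. It stood at 286, 279 and 228 CPM in proximal, 281, 257 and 280 CPM in distal and 254, 222 and 239 CPM in primary libraries (log2 fold change 0.17, SE 0.12, adjusted p = 0.363). The distal libraries lay just above the primary tumours, and the proximal libraries overlapped both. B4galt4 was at 12.3, 11.1 and 16.0 CPM in proximal, 12.0, 14.7 and 12.2 CPM in distal and 15.3, 42.7 and 34.5 CPM in primary libraries (log2 fold change -1.24, SE 0.30, adjusted p = 0.0602). Primary 1 lay inside the range of the metastases and the other primary tumours above it. B4galt3 was steady, at 29.3, 28.4 and 28.3 CPM in proximal, 31.1, 32.4 and 28.8 CPM in distal and 30.0, 25.4 and 27.3 CPM in primary libraries (log2 fold change 0.11, SE 0.12, adjusted p = 0.532).

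B3galt4, which acts in ganglioside synthesis, had the highest level per length of the B3galt genes. It was at 6.55, 7.07 and 6.37 CPM in proximal, 6.83, 6.74 and 6.47 CPM in distal and 6.61, 13.2 and 7.40 CPM in primary libraries (log2 fold change -0.44, SE 0.25, adjusted p = 0.279). B3galt6, which builds the linker that joins proteoglycan chains to protein, was at 10.7, 10.6 and 10.6 CPM in proximal, 10.6, 11.7 and 11.8 CPM in distal and 10.4, 20.3 and 17.7 CPM in primary libraries (log2 fold change -0.56, SE 0.22, adjusted p = 0.173). In both genes primary 2 was the highest library. B3galt1 was low throughout, at 0.444, 0.485 and 0.220 CPM in proximal, 0.550, 0.595 and 0.634 CPM in distal and 0.537, 0.0390 and 0.577 CPM in primary libraries (log2 fold change 0.29, SE 0.62, adjusted p = 0.764). B3galt5, which makes type 1 chains and was chosen after its values were seen, was at 3.55 to 7.60 CPM in the metastases and at 46.5, 1.52 and 8.96 CPM in primary 1, 2 and 3.

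Among the B3gnt genes, 7 of 9 were tested, B3gnt7 and B3gnt3 fell, none rose and the median log2 fold change was -1.45. B3gnt5, which makes the core of lacto-series glycolipids, was at 0.157, 0.868 and 0.245 CPM in proximal, 0.375, 0.881 and 0.834 CPM in distal and 10.8, 0.234 and 1.32 CPM in primary libraries. Primary 1 alone was high, and the log2 fold change of -2.92 (SE 0.99, adjusted p = 0.137) became -0.51 without it. B3gnt2, a broadly acting enzyme of the same chains as B3gnt7 and chosen after its values were seen, was at 3.76 to 5.41 CPM in the metastases and 4.67 to 5.98 CPM in the primary tumours (log2 fold change -0.25, SE 0.23, adjusted p = 0.467).

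Among the fucosyltransferases, 7 of 8 were tested, Fut4 fell and none rose (median log2 fold change -0.63). Fut11, which had the highest level per length over all libraries and was nearly matched by Fut2 (11.75 and 11.71 CPM per kilobase), was at 64.5, 57.8 and 49.0 CPM in proximal, 54.8, 53.5 and 51.1 CPM in distal and 55.0, 26.9 and 37.0 CPM in primary libraries (log2 fold change 0.48, SE 0.22, adjusted p = 0.218). Per kilobase, Fut11 stood at 13.0 CPM in the metastases and 9.31 in the primary tumours, and Fut2, which makes the H antigen, at 9.91 and 15.3. Fut8, which adds the core fucose of N-glycans, was at 58.3, 54.9 and 79.6 CPM in proximal, 67.3, 56.0 and 53.0 CPM in distal and 68.8, 40.1 and 53.8 CPM in primary libraries (log2 fold change 0.18, SE 0.20, adjusted p = 0.551). In Fut11 and Fut8 the groups overlapped. Fut9, which like Fut4 makes Lewis X and was chosen after its values were seen, was at 4.38 to 13.0 CPM in the metastases and at 9.42, 14.5 and 32.9 CPM in primary 1, 2 and 3 (log2 fold change -0.94, SE 0.46, adjusted p = 0.238).

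Among the sialyltransferases, St3gal4 was the only member called, of 6 St3gal, 6 of 8 St6gal and 4 of 6 St8sia genes tested. St3gal2, which caps O-glycans and gangliosides, was at 45.9, 47.0 and 44.3 CPM in proximal, 47.3, 46.8 and 44.6 CPM in distal and 53.9, 49.4 and 34.5 CPM in primary libraries. Its log2 fold change was 0.00 (SE 0.15, adjusted p = 0.993). St3gal5, which makes the ganglioside GM3, was at 15.7, 15.6 and 14.4 CPM in proximal, 17.8, 15.8 and 34.9 CPM in distal and 14.3, 4.96 and 4.96 CPM in primary libraries. Its 6 metastases lay just above primary 1 and well above the other primary tumours (log2 fold change 1.21, SE 0.43, adjusted p = 0.155). Distal 3, the highest library for St3gal5, also held neuron and neuroendocrine markers at 288 CPM, against at most 29.9 CPM elsewhere. It held neutrophil markers at 529 CPM, against at most 112 CPM elsewhere, and skeletal muscle markers at 899 CPM. Red blood cell markers summed to 5785 CPM there, against at most 1682 CPM elsewhere, and the part of these lists in the result was not tested.

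St6galnac2, which adds sialic acid to O-glycans, had the highest level per length of the St6gal genes. It was at 146, 77.2 and 131 CPM in proximal, 119, 122 and 85.1 CPM in distal and 158, 12.9 and 38.7 CPM in primary libraries (log2 fold change 0.70, SE 0.67, adjusted p = 0.483). Primary 1 was the highest of all 9 libraries and primary 2 the lowest. St6gal1, which caps N-glycans, was at 7.08, 14.0 and 8.03 CPM in proximal, 9.73, 8.62 and 12.0 CPM in distal and 19.9, 13.4 and 37.6 CPM in primary libraries (log2 fold change -1.25, SE 0.35, adjusted p = 0.0873). St6galnac5, a ganglioside enzyme, was under 1 CPM in every library, at 0.313, 0.383 and 0.220 CPM in proximal, 0.0750, 0.167 and 0.300 CPM in distal and 0.618, 0.195 and 0.985 CPM in primary libraries (log2 fold change -1.36, SE 0.54, adjusted p = 0.179).

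The polysialic acid enzymes were low. St8sia4 was at 3.03, 5.64 and 2.94 CPM in proximal, 1.98, 3.19 and 5.30 CPM in distal and 5.16, 2.62 and 5.81 CPM in primary libraries (log2 fold change -0.30, SE 0.42, adjusted p = 0.626). St8sia2 was at 0.0783, 0.459 and 0.539 CPM in proximal, 0.0250, 0.0953 and 0.100 CPM in distal and 0.591, 0.0390 and 3.803 CPM in primary libraries (log2 fold change -3.16, SE 1.05, adjusted p = 0.133). Primary 3 alone was high in St8sia2, and without it the log2 fold change was -0.99.

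The 12 members that did not pass the filter had few counts. Their highest counts in a library were 0 for Mgat4d, 1 for Galntl5, 2 for Galnt13 and for St6galnac1, 3 for Mgat4e, 4 for B3gnt4 and 9 for B3gnt6. The highest count was 15 for Fut7, 20 for St6gal2, 20 for St8sia3, 45 for St8sia5 and 561 for Galnt9. Galnt9 had 1, 8 and 1 counts in proximal, 3, 4 and 4 counts in distal and 3, 43 and 561 counts in primary libraries, so most of its counts were in primary 3. St8sia3 and St8sia5 had their highest counts in distal 3.

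**Figure D3:**
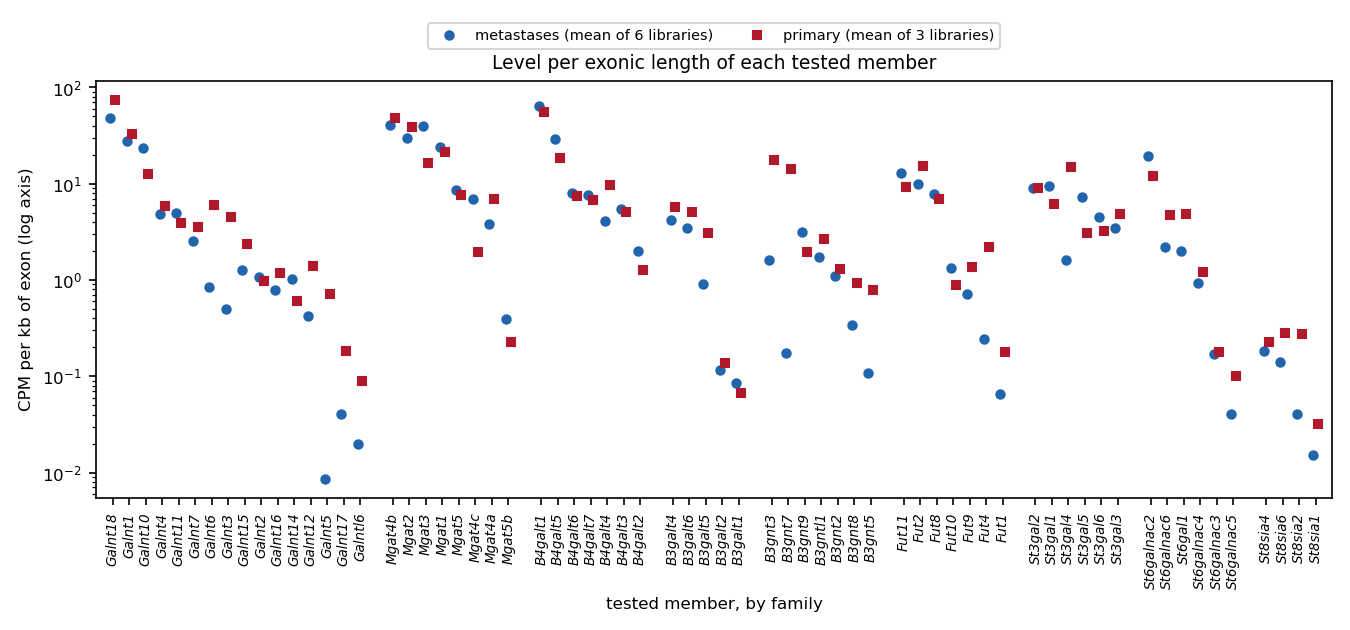
Mean level of each tested member in CPM per kilobase of exon on a log axis, in the 6 metastases (circles) and the 3 primary tumours (squares), ordered within each family by the mean over all libraries. B4galt1 was at 63.4 in the metastases and 56.2 in the primary tumours, and B3gnt7 was at 0.173 and 14.4.

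Levels of different members were compared per exonic length. B4galt1 stood at 63.4 CPM per kilobase in the metastases and 56.2 in the primary tumours, and Galnt18 at 47.9 and 74.1. Mgat4b stood at 40.3 CPM per kilobase in the metastases and 48.5 in the primary tumours. Mgat4a was well below it, at 3.78 and 6.98, so the called branching gene was the less abundant of this pair in both groups. The length counts every annotated exon, 12881 bases for Mgat4a and 2719 for Mgat4b, whether or not it is used here. In CPM without length, Mgat4a was at 48.7 in the metastases and 89.9 in the primary tumours, and Mgat4b at 109.5 and 132. The size of the gap thus depends on that length, as do the picks by level per length. B3gnt3 stood at 1.63 CPM per kilobase in the metastases and 17.5 in the primary tumours, and B3gnt7 at 0.173 and 14.4. In the metastases B3gnt9 had the highest level of the B3gnt genes, at 3.18, and in the primary tumours B3gnt3 and B3gnt7 had the highest.

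Each site was also compared with the primary tumours alone, and both comparisons use the same 3 primary libraries. In the proximal metastases B3gnt7 fell (log2 fold change -6.42, SE 0.65, adjusted p = 0.0295) and Mgat4a fell (-0.94, SE 0.11, adjusted p = 0.0411). These are 2 of 66 members, where 0.0494% of all tested genes were called lower and 0 higher. Both single-site calls were known when these families were chosen, so nothing is read from that difference. In the distal metastases B3gnt7 fell (-6.33, SE 0.65, adjusted p = 0.0378) and Mgat4a fell (-0.83, SE 0.11, adjusted p = 0.0476), where 0.0879% of all tested genes were called lower and 0 higher. No member rose at either site. In each of these comparisons both genes were called in 2 of 9 fits with a library left out, those without primary 1 and without primary 2. Both were called by DESeq2 at both sites and by limma-voom at neither, where limma-voom called 0.00549% of all genes lower at each site.

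The other 6 genes called in the mean comparison did not pass the test at single sites. Their log2 fold changes in the proximal metastases ran from -5.67 for Galnt5 (SE 0.95, adjusted p = 0.0848) to -3.16 for Fut4 (SE 0.73, adjusted p = 0.138). In the distal metastases the adjusted p of the 6 ran from 0.0702 for Galnt5, whose ratio is given above, to 0.217 for Galnt6 (-2.38, SE 0.81), with 0.101 for B3gnt3 (-3.35, SE 0.60). Groups that did not overlap were counted as a description. In the proximal metastases 13 members (19.7%) lay wholly below and 4 (6.06%) wholly above the primary tumours, against 10.7% and 8.68% of all tested genes. In the distal metastases 16 members (24.2%) lay wholly below and 6 (9.09%) wholly above, against 10.4% and 8.4%. With both sites together, 12 members (18.2%) lay wholly below and Galnt10, Mgat3 and St3gal5 (4.55%) wholly above, against 5.99% and 4.22%. Galnt5 and Galntl6 are in all 3 counts of members wholly below. Both needed their counts in the primary tumours to pass the filter, so neither could have lain wholly above.

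The distal metastases were compared with the proximal metastases to see whether the sites differ. No member was called, as was no gene of the 18204 tested (0% in each direction). The dispersion of this fit includes the more variable primary tumours, which can hide differences between the sites. The fit on the compared groups alone also called 0 members. At an unadjusted p under 0.05 there were 0 members as well, against 326 genes higher and 49 lower among all genes. DESeq2 called 0 members, 81 genes higher (0.445%) and 4 lower (0.022%). The median log2 fold change of the members was 0.01. Among the members with the lowest p of their family, those with the larger differences were at low levels in both groups. Galnt17 had a log2 fold change of 1.07 (SE 0.67), St8sia2 of -2.26 (SE 1.42), St6galnac5 of -0.78 (SE 0.67), B3gnt5 of 0.71 (SE 1.22) and B3galt1 of 0.63 (SE 0.70), each with an edgeR adjusted p of 0.99999. St3gal5 had 0.58 (SE 0.47) and rested on distal 3, without which it was 0.14. The steady members gave small values, with 0.11 (SE 0.11) for Mgat4a, 0.10 (SE 0.13) for B4galt3 and -0.13 (SE 0.23) for Fut8. B3galt1, Galnt3, Mgat2, Mgat4a and St3gal5 had every distal library above every proximal one. These are 7.58% of the members, against 4.03% of all tested genes, and none lay wholly below, against 3.6%.

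The members varied far more among the primary tumours than among the metastases. The median SD of log2(CPM + 0.5) per member was 0.25 in proximal, 0.16 in distal and 0.76 in primary libraries, against 0.14, 0.14 and 0.49 over all tested genes. Primary 1 lay inside the range of the 6 metastases for 32 of 66 members (48.5%), primary 2 for 12 (18.2%) and primary 3 for 10 (15.2%). Primary 1 lay above all 6 metastases for 30 members, or 45.5%, against 16.1% of all tested genes, and below them for 4. Primary 2 lay above for 26 members (39.4%, against 36.6% of all tested genes) and below for 28 (42.4%, against 42.7%). Primary 3 lay above for 37 (56.1%, against 33.9%) and below for 19 (28.8%, against 36.7%). Each tumour was high in different members. Among those chosen after their values were seen, St6galnac6 was at 8.31 to 12.7 CPM in the metastases and at 58.1, 3.87 and 5.77 CPM in primary 1, 2 and 3. Galnt18 and St3gal4 were highest in primary 2, and Galnt3, Galnt6, Fut9 and St6gal1 in primary 3.

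**Figure D4:**
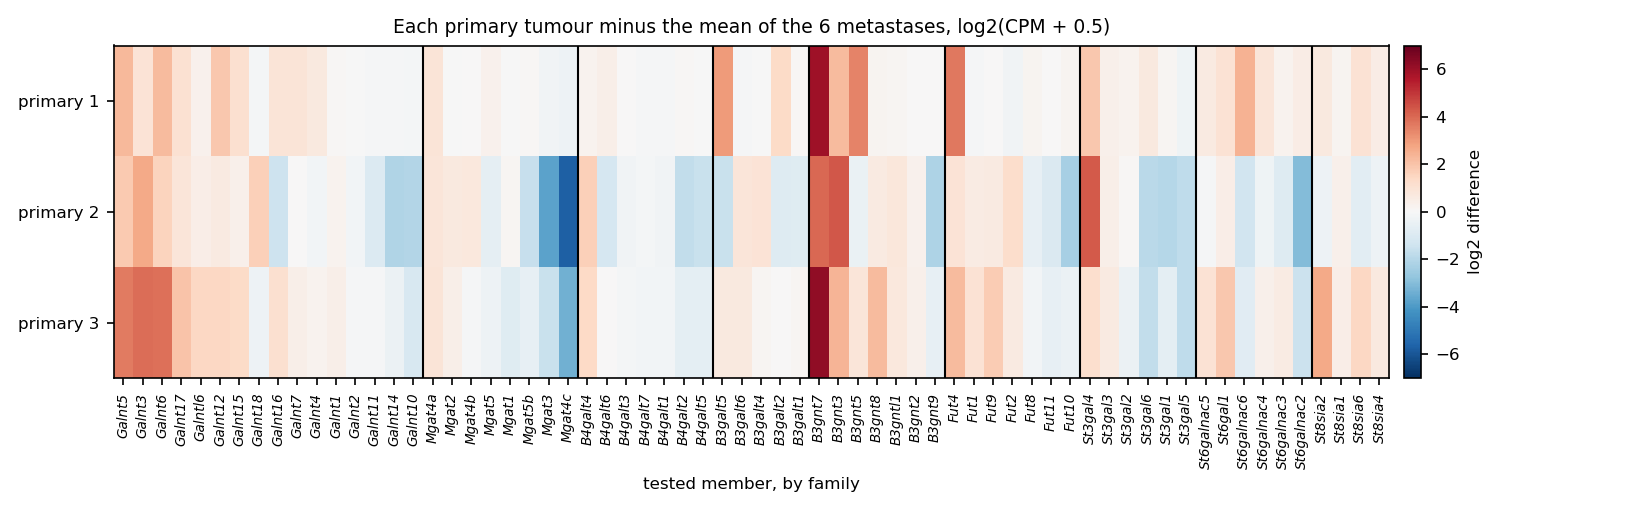
Difference of each primary tumour from the mean of the 6 metastases for the 66 tested members, as log2(CPM + 0.5), with red above and blue below the metastases. B3gnt7 is dark red in all 3 tumours, Fut4 and B3galt5 are darkest in primary 1, St3gal4 in primary 2 and Galnt6 in primary 3, and Mgat4c is blue in primary 2 and 3.

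All comparisons were repeated without each library. Primary 1 is the primary tumour closest to the metastases over all tested genes. The fit without it drops the most similar tumour, and its calls describe primary 2 and 3 only. Some log2 fold changes over both sites grew in size in that fit, as in Mgat4c (1.82 to 4.36) and Galnt3 (-3.22 to -3.67). Others shrank, as in Fut4 (-3.18 to -2.11) and B3gnt5 (-2.92 to -0.51). In the comparison of both sites, 21 of 67 members tested (31.3%) were then called lower and 11 (16.4%) higher, where 18.6% and 16.2% of all tested genes were called. The 8 members called with all libraries were among the 21. In the proximal metastases 16 members were called lower and 11 higher without primary 1 (14.9% and 13.8% of all genes), and in the distal metastases 14 lower and 10 higher (14.1% and 13.2%). Galnt9 passed the filter in that fit only through primary 2 and 3 (43 and 561 counts, against at most 8 in any metastasis). It could therefore only come out lower, at -6.75 on the log2 scale (SE 0.92, edgeR adjusted p = 0.00229). It is counted among the lower members of that fit in each comparison with the primary tumours, and nothing is read from its call. The 11 higher members were Mgat4c (4.36, SE 0.82), Mgat3 (2.31, SE 0.56), St6galnac2 (2.15, SE 0.48), St3gal5 (1.93, SE 0.34), St3gal6 (1.89, SE 0.18), Galnt10 (1.56, SE 0.25), St3gal1 (1.21, SE 0.34), B4galt2 (1.21, SE 0.33), St6galnac6 (1.15, SE 0.27), B4galt5 (1.11, SE 0.28) and Fut11 (0.81, SE 0.17). Their edgeR adjusted p ran from 0.000689 for St3gal6 to 0.0306 for St3gal1. Of these genes, the level in primary 1 lay below all 6 metastases for Galnt10, Mgat3 and St3gal5, above all of them for St6galnac2, St3gal6 and St6galnac6, and inside their range for the other 5. Without primary 2 the calls, all lower, were B3gnt7, B3gnt3, Mgat4a, Galnt5 and Fut4, where 1.32% of all genes were called lower and 0.0106% higher. Without primary 3 they were B3gnt7, B3gnt3, Mgat4a and Galnt5, where 0.469% of all genes were called lower.

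Other tools called different numbers of members from the same counts. With both sites, DESeq2 called 18 members lower, the 8 among them, and St3gal5 higher, where it called 11.6% of all genes lower and 2.66% higher. At single sites it called 12 members lower in the proximal metastases (7.42% of all genes, and 0.747% higher) and 12 lower and St3gal5 higher in the distal metastases (6.81% and 1.13%). With both sites, limma-voom called B3gnt7, Galnt5 and Mgat4a lower, where it called 0.407% of all genes lower and 0.011% higher. Sample quality weights, which give primary 2 a weight of 0.0843 and primary 1 one of 0.175, raised the calls to 21 members lower (12.7% of all genes) and 4 higher (8.28%), the 4 being Galnt10, Mgat1, Mgat3 and Mgat4c. With these weights 18 members were lower and 3 higher in the proximal metastases (11.4% and 7.92% of all genes), and 17 lower and 3 higher in the distal metastases (10.4% and 6.31%).

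**Figure D5:**
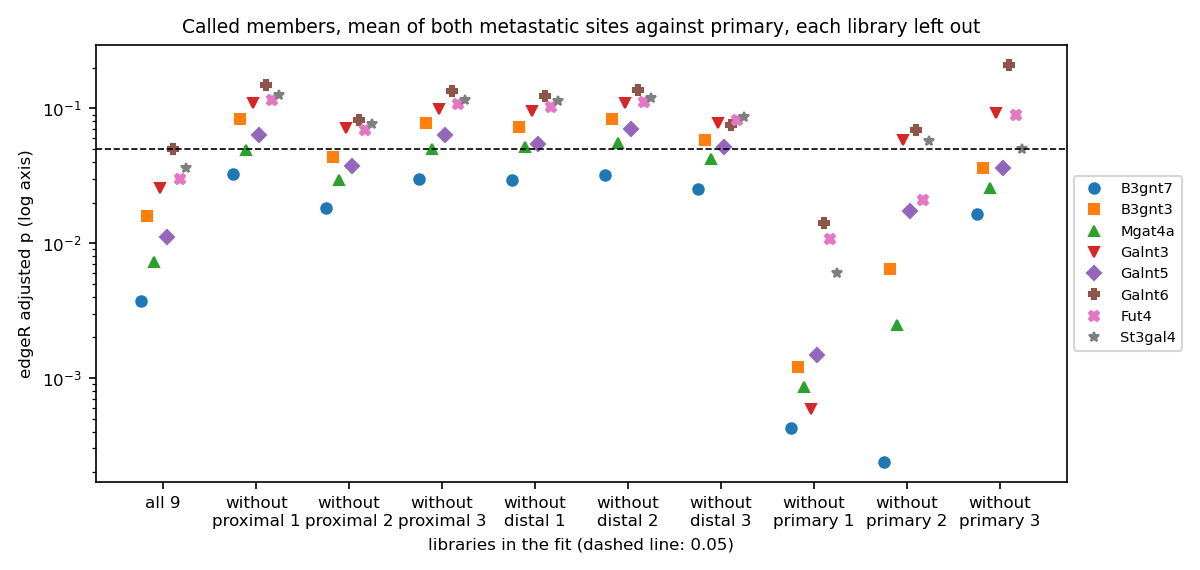
Adjusted p of edgeR's quasi-likelihood F-test for the 8 called members in the comparison of both metastatic sites with the primary tumours, with all 9 libraries and with each library left out, on a log axis. B3gnt7 lies under the dashed line at 0.05 in every fit and reaches at most 0.0324, while Galnt6 lies above it in all but 1 of the 9 fits with a library left out.

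Other genes that feed or accompany these enzymes were read from the same fit, by lists. None was called in a single-site comparison or between the sites, and no gene of the lists rose. With both sites, 3.68% of all tested genes were called lower and 0.033% higher, with a median log2 fold change of -0.04. Counts of 1 or 2 in a list are a description and are not read as a trait of that list. Of 25 genes of nucleotide sugar supply, 2 fell with both sites together (median log2 fold change -0.46). Gfpt1, the rate-limiting enzyme of the hexosamine pathway that makes UDP-N-acetylglucosamine, averaged 65.9 ± 2.93 CPM in the metastases (SD, n = 6) and 223 ± 117 CPM in the primary tumours (SD, n = 3), a difference of -1.76 on the log2 scale (SE 0.26, edgeR adjusted p = 0.0198). Gmds, the first enzyme of GDP-fucose synthesis, averaged 16.5 ± 1.56 CPM in the metastases and 35.2 ± 10.9 CPM in the primary tumours (-1.10, SE 0.20, adjusted p = 0.0288). None of 10 nucleotide sugar transporters was called. The lowest p were those of Slc35d2 (0.79, SE 0.22, adjusted p = 0.0827) and Slc35c2 (-0.79, SE 0.31, adjusted p = 0.180).

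Of 22 tested other Golgi glycosyltransferases, 2 fell, both of which add N-acetylgalactosamine (median log2 fold change -0.50). B4galnt1, which makes the gangliosides GM2 and GD2, averaged 10.8 ± 3.38 CPM in the metastases and 104 ± 96.9 CPM in the primary tumours, with 9.67 CPM in primary 1 (-3.27, SE 0.70, adjusted p = 0.0468). B4galnt2, which makes the Sda antigen, averaged 0.205 ± 0.313 CPM in the metastases and 8.22 ± 7.13 CPM in the primary tumours (-5.57, SE 0.94, adjusted p = 0.0257). Of 8 N-glycan trimming enzymes, the Golgi mannosidases Man1a (-2.48, SE 0.48, adjusted p = 0.0347) and Man1c1 (-1.91, SE 0.41, adjusted p = 0.0455) fell, with a list median of -0.33. They trim mannose before Mgat1 acts. Of 8 tested mucins, which carry many O-glycans, Muc4 fell (-4.21, SE 0.86, adjusted p = 0.0419), with 0.0857 ± 0.121 CPM in the metastases and 1.36 ± 1.18 CPM in the primary tumours. The median over the 8 was -3.25.

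None of 4 tested sialidases and fucosidases was called, the lowest p being that of the lysosomal fucosidase Fuca1 (-1.62, SE 0.37, adjusted p = 0.0533) and of Fuca2 (-0.34, SE 0.14, adjusted p = 0.192). None of 20 tested glycan-binding lectins was called either, with a median log2 fold change of -0.78. The galectin genes Lgals7 (-3.26, SE 0.73, adjusted p = 0.0509) and Lgals4 (-4.43, SE 1.12, adjusted p = 0.0700) had the lowest p. Macrophage markers, which share the lectin Mrc1 with this list, summed to 156 to 307 CPM in the metastases and to 322, 644 and 484 CPM in primary 1, 2 and 3, and their part was not tested.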

How the data were processed

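The deposited files hold raw, whole-number counts per Ensembl gene, 1 file for each of 9 libraries, 47069 genes each. Per the submitters' processing notes, the genome was GRCm38.p3 and the tools named are TopHat2 2.1.0, HTSeq 0.6.0, Bowtie2 2.2.6.0, DESeq2 1.14.1, FastQC 0.11.4 and R 3.2.3, with no roles. The sources used here do not give the strand setting of the counting or its annotation, so counts of overlapping genes are uncertain. Groups follow the tissue labels, and library numbers within a group are names only. All animals also carry a further engineered change, which is not reported here.

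Symbols, positions and exonic lengths came from GENCODE M21 on GRCm38, and 46574 of the 47069 identifiers had a symbol. Of the genes matching the prefixes, 2 were not protein-coding and were left out. TMM scaling, edgeR's filterByExpr (minimum count 10, minimum total 15) and the robust quasi-likelihood F-test of edgeR 4.0.16 in R 4.3.3 were run in 1 model of the 9 libraries, leaving 6 residual degrees of freedom; 28865 genes were not tested. Each SE is the size of the log2 fold change over the square root of F. All groups share a dispersion, although primary libraries varied more, so SEs against primary can be too small and SEs between the metastatic sites too large. The code was tested on simulated counts. Alternatives were other scalings and filters, no robust shrinkage, limma-voom (limma 3.58.1) with and without sample quality weights, DESeq2 1.42.0, the compared groups alone and leaving out each library.

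Given in full are the called members and, per family, the member with the highest level per length and those with the lowest p over both sites and between the sites. Of each pathway list, called genes were named, or the 2 with the lowest p. The members and lists were chosen with earlier results of these data known, and the calls of B3gnt7 and Mgat4a at single sites were among those results. No library was within sampling noise of another: the lowest chi-square per gene was 25.4. Pairs of metastases ran from 25.4 to 83.5, and primary 1 stood at 47.6 to 80.9 from the metastases. From primary 2 and 3 it stood at 828 and 336, so by this measure primary 1 was as near to the metastases as they were to each other. The p-values set each difference against a spread pooled over the 3 groups. They take the 9 libraries as independent, although the labels describe them as matched in 3 mice.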

Additional observations from a re-analysis of the deposited data

How the results depend on the processing

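The number of members called depended on the tool and on single libraries. In proximal against primary it was 2, and it was 1 with library totals alone and with no filter, 0 with limma-voom and with the compared groups alone, 12 with DESeq2 and 21 with sample quality weights. In distal against primary it was 2, and it was 1, 1, 0, 0, 13 and 20 under the same alternatives. With both sites it was 8, and it was 7 with library totals alone and with the filter of at least 1 CPM in 3 libraries (Galnt6 lost in both), 10 with no filter (B3gnt6 and Galnt9 gained), 3 with limma-voom (B3gnt7, Galnt5 and Mgat4a), 19 with DESeq2 and 25 with sample quality weights. DESeq2 and the quality weights called all 8 among theirs, the latter with the primary group resting mainly on primary 3. With each library left out it ran from 0 to 27 in proximal against primary, from 0 to 24 in distal against primary and from 1 to 32 with both sites, with the highest counts without primary 1; without other single libraries it was at most 5. Between the sites it was 0 in every fit. Over both sites, Galnt18 (-0.63) turned to 0.21 with quality weights and ran from -0.96 to 0.29 with a library left out. Mgat4b (-0.27) turned to 0.026 and ran from -0.426 to 0.052, and B3galt1 (0.29) turned to -0.068 and ran from -0.226 to 0.669. St3gal2 (0.00) was -0.021 with median-ratio size factors, with the filter of at least 1 CPM in 3 libraries and with DESeq2, and ran from -0.163 to 0.155. Between the sites Fut8 (-0.13) ran from -0.239 to 0.054. No called member changed sign under any of these alternatives, and the causes of the differences were not tested. Library totals alone moved the median of all genes by at most 0.099 on the log2 scale. Of the single-gene values, 722 kept direction and side of the threshold, 90 lost the call, 57 gained one and 11 changed sign. No paired analysis was possible because the labels carry no replicate numbers and do not say which libraries share a mouse. Members under about 1 CPM, such as Galnt5, Galnt17 and St8sia2, rest on few counts, which limits the precision of their fold changes.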
